A study of Mus musculus with 4 samples.

Results

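Genes that mark the capillary endothelium and its handling of lipid were followed through single cells of mouse brown adipose tissue (BAT). There were 10 of them, of 32285 in the count files: Gpihbp1, Rbp7, Cd300lg, Timp4, Aqp1, Cav1, Cavin2, Adgrf5, Meox2 and Tcf15. They were taken by symbol from a list, and each symbol was found in the files. The cells came from the stromal vascular fraction (SVF), the immune, stromal and vascular cells left when digested fat has been freed of its floating adipocytes. Single-cell RNA sequencing gave 4 libraries, 1 per group. WT was C57BL6/J at 10 weeks of age. The db/db 8w and db/db 16w libraries came from mice of 8 and 16 weeks, which by the study were B6.BKS(D)-Leprdb/J with a mutated leptin receptor, and which the labels place on the C57BL6/J strain. The HFD library came from C57BL6/J mice on a high-fat diet and is labelled 10 weeks, although the study started that diet at 10 weeks of age and gave it for 10 weeks, so the age of these mice is not settled. All mice were fasted for 16 h before harvest, and each library was, by the study, the pooled SVF of 3 mice after a cell sort whose gate was not given in the sources used here. No spread between mice or preparations can therefore be estimated, no difference was tested, and every 95% interval covers counting error only. Age, diet, genotype and library cannot be told apart.

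Brown fat burns fatty acids, and most of them reach it in triglyceride-rich lipoproteins that are cleaved at the capillary wall. Lipoprotein lipase is made by the adipocyte, is carried across the endothelial cell by GPIHBP1 and works while GPIHBP1 holds it on the lumenal face. The fatty acids it frees are taken up through CD36 and bound in the cell by FABP4, and the transcription factors MEOX2 and TCF15 act as a pair that sets up this uptake program in the capillaries of the heart. Caveolae, the flask-shaped pits of the plasma membrane that CAV1 coats and the cavins shape, are dense in the same cells.

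Endothelial cells were those in which Cdh5, Cldn5, Kdr and Flt1, all endothelial membrane proteins, together made up at least 20 of every 10000 unique molecular identifiers (UMIs, counts of captured RNA molecules). WT had 21 such cells (0.353% of 5944 that passed quality limits), db/db 8w had 109 (0.936% of 11648), db/db 16w had 1329 (22.8% of 5833) and HFD had 1604 (29.4% of 5462). They held 30001, 246218, 1677767 and 8278612 UMIs in that order. Endothelial genes that the rule did not use (Pecam1, Tie1, Egfl7 and Esam) were all seen in each library and summed to between 1936 and 3399.9 counts per 1000000 UMIs (CPM), whereas the lymphatic markers Prox1, Mmrn1 and Reln summed to at most 52.8 CPM. The WT values rest on 21 cells and are given for completeness. The numbers of cells hung on the limits: with no mitochondrial limit there were 43, 251, 1358 and 5038 endothelial cells, and with Pecam1, Tie1, Egfl7 and Esam as the rule genes 16, 65, 986 and 718, so that HFD held fewer than db/db 16w. Just below the threshold, with 10 to 20 UMIs per 10000, lay 7, 113, 194 and 245 cells, and just above it, with 20 to 40, lay 0, 45, 315 and 602. The order of libraries in such runs of values is WT, db/db 8w, db/db 16w, HFD throughout.

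The libraries differed in more than their groups. Median depth per endothelial cell was 1241, 1697, 1001 and 4647.5 UMIs across the libraries, and the median mitochondrial share was 8.82%, 10.2%, 1.46% and 11.4%. Xist, transcribed from the inactive X of female cells, was at 129 CPM (217 UMIs) in the endothelial cells of db/db 16w and at most 0.483 CPM in any other library. The Y-linked genes (Ddx3y, Eif2s3y, Kdm5d and Uty) summed to 48.3 CPM there and to between 195 and 333 CPM elsewhere. The study states that all of its mice were male, and db/db 16w goes against that statement, so each db/db 16w value below is that of the library labelled so. Mural markers (Rgs5, Notch3, Kcnj8 and Abcc9) summed to 66.7, 455, 601 and 830 CPM in the endothelial cells, with all 4 genes seen in db/db 16w and HFD, Kcnj8 and Abcc9 at 0 in db/db 8w and these and Notch3 at 0 in WT. Stromal markers summed to 433, 459, 81.1 and 273 CPM, with all 4 seen in each library. Macrophage markers (Csf1r, Adgre1, Mpeg1 and Cd68) summed to between 33.3 and 221 CPM and brown adipocyte markers (Ucp1, Cidea, Adipoq and Plin1) to 268 CPM for HFD against at most 7.75 CPM elsewhere. Cells that also passed the threshold of another cell class numbered 3, 14, 132 and 273, and ratios without them are given beside the results they moved most. The part of depth, mitochondrial share and the marker RNA that remains was not tested. Libraries shared 16 to 97 barcodes per pair, at most 0.629% of either library.

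The annotation (GENCODE, GRCm38) gives all 10 as protein-coding genes. Gpihbp1 lies on chromosome 15 (ENSMUSG00000022579, 75596628 to 75599481, plus strand), Rbp7 on chromosome 4 (ENSMUSG00000028996, 149449687 to 149454978, minus), Cd300lg on chromosome 11 (ENSMUSG00000017309, 102041509 to 102055620, plus) and Tcf15 on chromosome 2 (ENSMUSG00000068079, 152143561 to 152149097, plus). Chromosome 6 holds Cav1 (ENSMUSG00000007655, 17306335 to 17341452, plus), Aqp1 (ENSMUSG00000004655, 55336432 to 55348555, plus) and Timp4 (ENSMUSG00000030317, 115241892 to 115252205, minus). Cavin2 lies on chromosome 1 (ENSMUSG00000045954, 51289126 to 51302960, plus), Adgrf5 on chromosome 17 (ENSMUSG00000056492, 43360451 to 43459557, plus) and Meox2 on chromosome 12 (ENSMUSG00000036144, 37108540 to 37179534, plus). Timp4 overlaps Syn2 and Gm17482, Cav1 overlaps Gm15581 and Cavin2 overlaps 9330175M20Rik, all on the opposite strand. Meox2 overlaps Gm48617 on its own strand, so that reads in the shared stretch are uncertain, and the strand setting of the counting was not given in the sources used here.

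Promoter sequence was at hand from RefSeq (GRCm38.p6) for 7 of the 10 genes, and the 4 of these that differed at least 2-fold between libraries in any comparison below are shown: Timp4, Rbp7, Cavin2 and Meox2. Each run is the 250 bases before the annotated start, 5′ to 3′ on the gene's strand, and capitals mark the core letters AGGAAG of ETS-family sites (or CTTCCT, the same on the other strand), since ETS factors act in all endothelium.
Timp4 (chr6:115252206-115252455, minus strand): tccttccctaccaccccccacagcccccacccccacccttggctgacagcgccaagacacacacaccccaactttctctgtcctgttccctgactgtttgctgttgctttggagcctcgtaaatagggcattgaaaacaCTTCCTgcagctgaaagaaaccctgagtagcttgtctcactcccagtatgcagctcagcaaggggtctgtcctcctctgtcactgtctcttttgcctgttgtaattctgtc
Rbp7 (chr4:149454969-149455218, minus strand): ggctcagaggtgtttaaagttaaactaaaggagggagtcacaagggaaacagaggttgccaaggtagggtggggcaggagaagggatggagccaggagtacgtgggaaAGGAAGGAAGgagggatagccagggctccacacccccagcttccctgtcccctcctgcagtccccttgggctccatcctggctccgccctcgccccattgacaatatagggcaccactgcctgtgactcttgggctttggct
Cavin2 (chr1:51288876-51289125, plus strand): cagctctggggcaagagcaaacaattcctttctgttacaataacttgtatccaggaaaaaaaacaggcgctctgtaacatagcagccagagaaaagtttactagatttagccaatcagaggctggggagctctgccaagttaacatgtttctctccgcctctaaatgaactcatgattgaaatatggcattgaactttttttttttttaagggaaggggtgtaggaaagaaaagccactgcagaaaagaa
Meox2 (chr12:37108290-37108539, plus strand): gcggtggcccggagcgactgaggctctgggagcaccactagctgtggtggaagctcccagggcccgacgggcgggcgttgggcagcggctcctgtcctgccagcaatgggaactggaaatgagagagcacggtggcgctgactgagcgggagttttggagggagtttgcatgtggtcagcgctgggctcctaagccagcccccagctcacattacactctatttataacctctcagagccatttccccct
AGGAAG on either strand was found before the start of 4 of the 7 genes (Rbp7, Timp4, Aqp1 and Adgrf5), and in 29.5% of 32851 RefSeq promoter windows of that length. The E-box letters CANNTG were found in 5 of 7, and in 66.2% of all windows. TAATTA, a homeodomain core, was found in 0 of 7 and in 4.84% of all windows. These are matches of letters and not bound sites.

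All 10 genes were detected in the endothelial cells of each library, from 3 UMIs (Meox2 in WT) to 13744 (Cavin2 in HFD). Counts were summed over the cells of a library and divided by all their UMIs. As the assay counts 3′ ends and the values are not per length, each gene is compared with itself and not with the others.

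Gpihbp1, the carrier and anchor of lipoprotein lipase, was at 1933 CPM for WT (95% interval 1468 to 2499), 1913 CPM for db/db 8w (1744 to 2094), 4677 CPM for db/db 16w (4574 to 4782) and 1316 CPM for HFD (1291 to 1341). Its level in db/db 16w stood above the other libraries and that in HFD below them, while WT and db/db 8w overlapped. The db/db 16w level was 3.55-fold that in HFD (log2 ratio 1.83, 1.79 to 1.87) and 2.44-fold that in db/db 8w (1.29, 1.16 to 1.43). For shares in thinned cells, each cell of at least 1000 UMIs was thinned to 1000 UMIs, and shallower cells were left out. These were 8 of 21 in WT, 30 of 109 in db/db 8w, 662 of 1329 in db/db 16w and 5 of 1604 in HFD. The thinned shares thus cover only the deeper cells of db/db 16w but nearly all of HFD. Among thinned cells, 93.3% of 667 in db/db 16w held a Gpihbp1 UMI, against 68.4% of 1599 in HFD. The share was 78.5% of 79 in db/db 8w and 84.6% of 13 in WT. Without thinning the shares were 71.4%, 77.1%, 93.8% and 95.5%, with HFD, whose endothelial cells were the deepest, the highest.

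Rbp7, a retinol-binding protein of adipose endothelium, showed another order. It was at 599.98 CPM for WT (356 to 948), 1824 CPM for db/db 8w (1659 to 2000.3), 925 CPM for db/db 16w (879.6 to 972) and 1077 CPM for HFD (1055 to 1099). Its level was highest in db/db 8w and lowest in WT, whose interval overlapped that of db/db 16w. Between db/db 8w and WT the log2 ratio was 1.60 (0.93 to 2.37), a 3.04-fold difference on 449 and 18 UMIs. The db/db 16w level was lower than in db/db 8w by a log2 ratio of -0.98 (-1.13 to -0.82), just inside 2-fold. It spanned -1.30 to -0.58 over 11 other settings and passed 2-fold in 5 of them. In thinned cells the shares with a UMI lay close together, between 38.5% in WT and 51.9% in db/db 8w.

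Cd300lg, an immunoglobulin-family receptor of capillary and venular endothelium, was at 699.98 CPM for WT (433 to 1069.99), 820.4 CPM for db/db 8w (711 to 942), 1284 CPM for db/db 16w (1231 to 1339.9) and 713 CPM for HFD (695 to 732). Only the db/db 16w level stood apart, as HFD overlapped both WT and db/db 8w. It was 1.80-fold that in HFD (log2 ratio 0.85, 0.78 to 0.92). In thinned cells 71.7% held a UMI in db/db 16w and 48.1% in HFD.

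Timp4, a secreted inhibitor of matrix metalloproteinases, had the widest range of the 10. It was at 999.97 CPM for WT (675 to 1428), 1214 CPM for db/db 8w (1081 to 1360.1), 1465 CPM for db/db 16w (1408 to 1524) and 179 CPM for HFD (169.9 to 188). The HFD level lay far below the other libraries, and the WT interval overlapped those of db/db 8w and db/db 16w. Timp4 was 8.19-fold higher in db/db 16w than in HFD (log2 ratio 3.03, 2.94 to 3.13), and HFD over WT gave a log2 ratio of -2.48 (-3.00 to -1.91). In thinned cells 16.9% in HFD held a Timp4 UMI (95% interval 15.1 to 18.9), against 72.4% of cells in db/db 16w, 72.2% of cells in db/db 8w and 53.8% of the 13 cells of WT. Mural cells held Timp4 too. In the 36 mural cells of db/db 16w with no UMI of the endothelial rule genes it was at 942 CPM, where Gpihbp1 was at 102 CPM. The mural markers in endothelial cells were at 830 CPM in HFD and at 601 CPM in db/db 16w, and with cells passing another class left out the Timp4 ratio was 2.999. The part of the mural RNA that remains was not tested.

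Aqp1, the water channel of capillary endothelium, was at 733 CPM for WT (459.6 to 1110.2), 731 CPM for db/db 8w (628 to 846), 1456 CPM for db/db 16w (1398 to 1514) and 975 CPM for HFD (954 to 997). The db/db 16w level was the highest and HFD came next, and the intervals of WT overlapped those of HFD and db/db 8w. Against db/db 8w the log2 ratio of db/db 16w was 0.99 (0.77 to 1.22), but it was 0.30 among cells of 1000 to 3000 UMIs only and 0.43 among thinned cells. Against HFD it was 0.58 (0.51 to 0.64). Thinned shares were 15.4%, 30.4%, 50.1% and 44.7%, and those not thinned 38.1%, 36.7%, 51.7% and 68.5%.

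The caveolar genes parted. Cav1, which coats caveolae, was at 1333 CPM for WT (953 to 1816), 1466 CPM for db/db 8w (1319 to 1626), 1222 CPM for db/db 16w (1169.5 to 1276) and 1541 CPM for HFD (1514 to 1568). Ordered by level, every library overlapped its neighbour, and highest and lowest, HFD and db/db 16w, were 1.26-fold apart without overlap (log2 ratio of db/db 16w over HFD -0.33, -0.40 to -0.27). Cavin2, which binds the caveolar coat and bends the membrane, was at 1767 CPM for WT (1323 to 2311), 1324 CPM for db/db 8w (1184 to 1476), 591 CPM for db/db 16w (554 to 629) and 1660.2 CPM for HFD (1633 to 1688). The WT interval overlapped those of HFD and db/db 8w, and the db/db 16w level was below each of the other 3. It was 2.81-fold lower than in HFD (log2 ratio -1.49, -1.59 to -1.40), 2.24-fold lower than in db/db 8w (-1.16, -1.35 to -0.98) and 2.99-fold lower than in WT (-1.58, -1.98 to -1.15). In thinned cells a Cavin2 UMI was held by 42.7% of cells in db/db 16w, against 77.6% in HFD, 74.7% in db/db 8w and 84.6% in WT.

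Adgrf5, an adhesion G protein-coupled receptor of endothelium, was at 1299.96 CPM for WT (924 to 1777), 1214 CPM for db/db 8w (1081 to 1360.1), 1687 CPM for db/db 16w (1626 to 1751) and 1250.4 CPM for HFD (1226 to 1275). The db/db 16w level was above db/db 8w and HFD, by log2 ratios of 0.47 (0.30 to 0.65) and 0.43 (0.37 to 0.49), and overlapped WT. Highest and lowest were 1.39-fold apart.

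The paired transcription factors gave few counts and went apart as well. Meox2, a homeodomain factor, was at 99.997 CPM for WT (20.6 to 292, on 3 UMIs), 122 CPM for db/db 8w (82.2 to 174), 88.2 CPM for db/db 16w (74.6 to 104) and 208 CPM for HFD (198 to 218). The HFD level stood above db/db 8w and db/db 16w, and the wide WT interval covered them all. The db/db 16w level was 2.35-fold lower than in HFD (log2 ratio -1.23, -1.49 to -0.99), and thinned shares were 8.40% and 18.4%. HFD over WT gave 1.05, with an interval (-0.50 to 3.33) that held 0, and was 0.01 with no mitochondrial limit and 0.99 with cells passing another class left out. Tcf15, a basic helix-loop-helix factor, was at 299.99 CPM for WT (137 to 569), 259.9 CPM for db/db 8w (200.2 to 332), 303 CPM for db/db 16w (277 to 330.3) and 244 CPM for HFD (233 to 255). All neighbours in its order overlapped, and its highest and lowest levels were 1.24-fold apart.

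**Figure D1:**
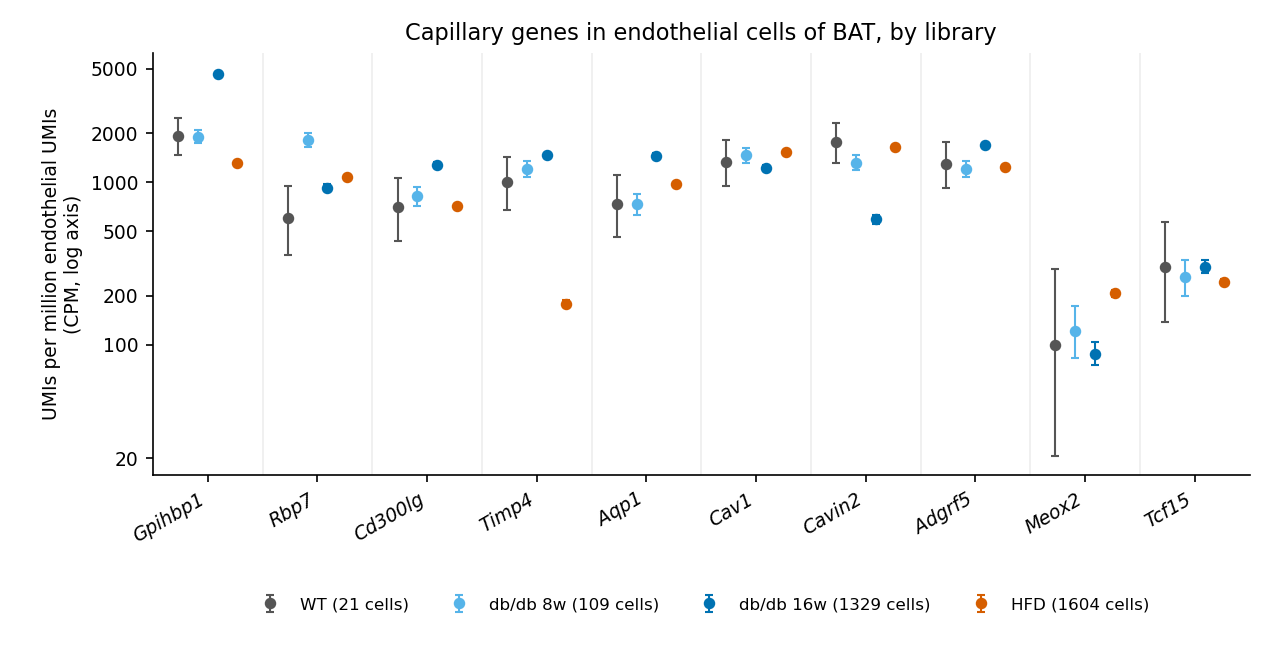
Level of each of the 10 genes in endothelial cells, in CPM on a log axis, with 1 point per library and bars for exact Poisson 95% intervals of counting error. Gpihbp1 is highest and Cavin2 lowest in db/db 16w, Timp4 is far lower in HFD than elsewhere, and the bars of WT (21 cells) are the longest.

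**Figure D2:**
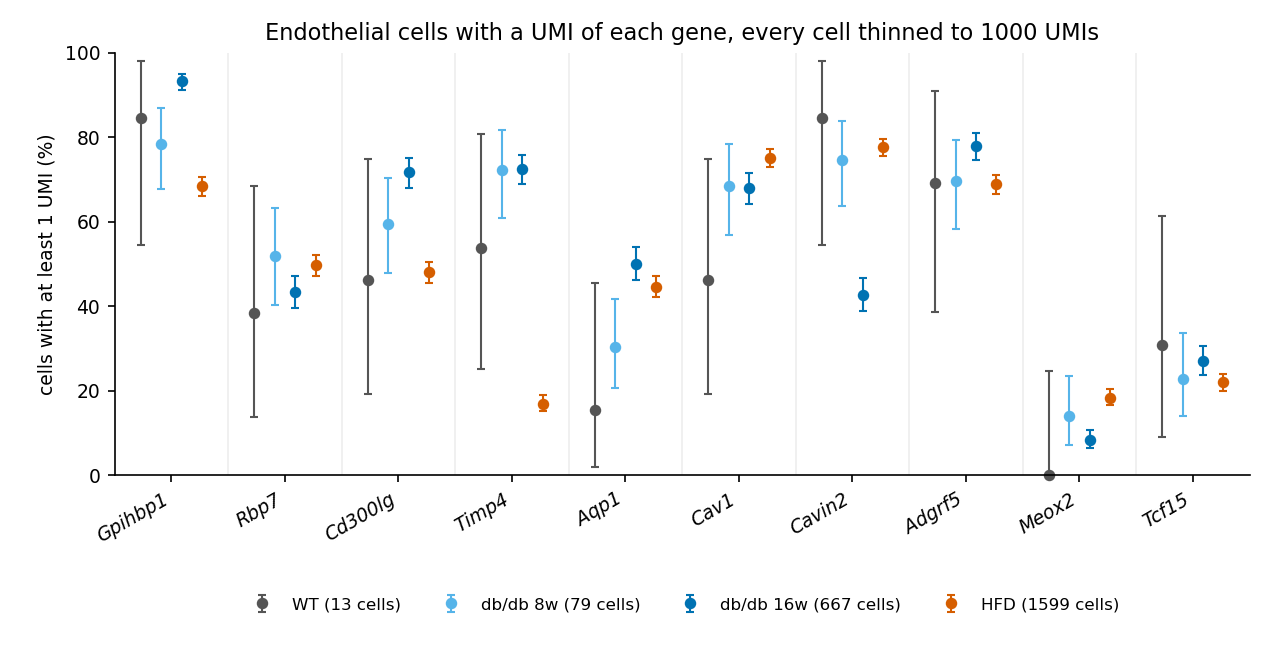
Percent of endothelial cells with at least 1 UMI of each gene after thinning at random to 1000 UMIs, with exact binomial 95% intervals. Cells under 1000 UMIs were left out. Timp4 is at 16.9% in HFD against 72.4% in db/db 16w, and Cavin2 is at 42.7% in db/db 16w against 77.6% in HFD.

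The comparison with the most counts was db/db 16w over HFD. There 6 of the 10 genes were higher in db/db 16w and 4 lower, and no interval held 0, where 67.8% of the 6732 genes compared had an interval that left out 0. Of the 10, 2 (Gpihbp1 and Timp4) were at least 2-fold higher, as were 8.29% of all genes compared, and 2 (Cavin2 and Meox2) at least 2-fold lower, as were 17.1%. The median log2 ratio of the 10 was 0.37, against -0.18 over all genes. Scaling the libraries to 12 pan-endothelial genes moved the median over all genes by -0.18 and that of the 10 from 0.37 to 0.19, and each of the 10 kept its sign. The 4 calls held under all 11 other settings, with ranges of 1.65 to 1.97 for Gpihbp1, 2.85 to 3.17 for Timp4, -1.67 to -1.36 for Cavin2 and -1.42 to -1.13 for Meox2.

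The db/db libraries share the labelled genotype and differ in labelled age, and they also differed in Xist (0 and 217 UMIs) and in the Y-linked genes (195 and 48.3 CPM). Between them 1 gene was at least 2-fold higher at 16 weeks (Gpihbp1; 11.7% of 6711 genes) and 1 at least 2-fold lower (Cavin2; 18% of genes). The median was 0.25, against -0.16 over all genes, and with cells that passed another class left out it was 0.07. In 8 of 10 the interval left out 0, as it did in 33.8% of all genes, the exceptions being Meox2 (-0.47, -1.04 to 0.15) and Tcf15 (0.22, -0.16 to 0.62). Timp4 was higher by 0.27 (0.10 to 0.45), which became 0.08 with cells that passed another class left out, -0.13 in thinned cells and -0.05 in cells of 1000 to 3000 UMIs. This comparison shares the db/db 16w library with the one above.

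Comparisons over WT share its 21 cells. With so few WT UMIs, whether a gene entered the all-gene set here depended in part on its WT count. Genes counted high in WT by chance are favoured, which can lower the all-gene medians and raise the shares called lower. The 10 genes were taken from a list whatever their WT count. The all-gene values over WT are thus no fair background for them, and the size of this effect was not tested. In db/db 8w over WT, 1 gene was at least 2-fold higher (Rbp7; 5.46% of 2068 genes) and 0 at least 2-fold lower (12% of genes), and the median of the 10 was 0.07 (0.28 with cells passing another class left out) against -0.08. In db/db 16w over WT, 1 was at least 2-fold higher (Gpihbp1, log2 ratio 1.27, 0.90 to 1.67; 8.11% of 2539 genes) and 1 lower (Cavin2; 37% of genes), with medians of 0.46 and -0.61. In HFD over WT, 1 was at least 2-fold higher (Meox2; 5.52% of 2625 genes) and 1 lower (Timp4; 29.9% of genes), with medians of -0.01 and -0.42. Scaled to the 12 pan-endothelial genes, the share of all genes 2-fold lower in HFD was 18.4% and the share 2-fold higher 13.4%, and the median over all genes moved by 0.42, 0.24 and 0.30 in HFD, db/db 16w and db/db 8w over WT.

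**Figure D3:**
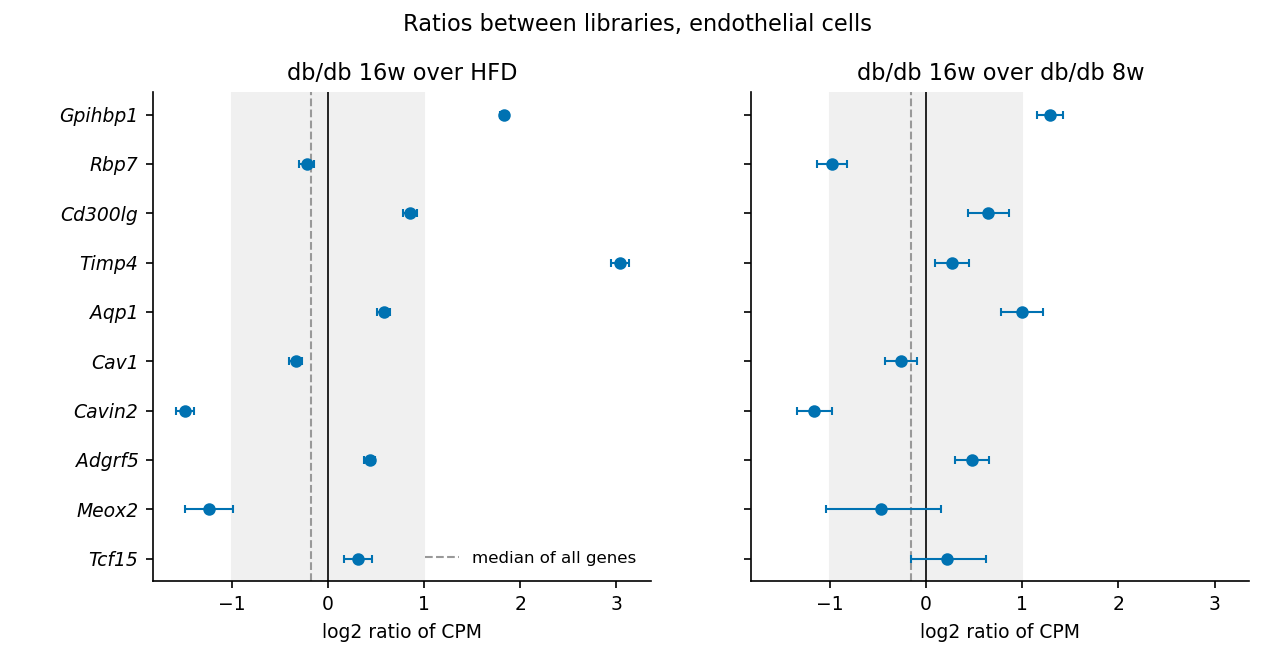
Log2 ratio of CPM in endothelial cells for each gene, db/db 16w over HFD (left) and over db/db 8w (right), with exact 95% counting intervals, grey for less than 2-fold and a dashed line at the median of all genes. Gpihbp1 and Cavin2 lie outside the grey band in both panels, and Timp4 and Meox2 in the left one only.

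Outside the endothelium the levels depended on the cell class and the gene. Cells of other classes were named by 4 markers each, with the same threshold, and classes of at least 50 cells were used. In macrophages the 10 genes stood at a median of 0.0299%, 0.315%, 0.774% and 2.81% of their endothelial level across the libraries, and in stromal cells (Pdgfra, Lum, Dpt and Pcolce) at 0.240%, 1.11%, 1.38% and 4.27%. These shares were higher in db/db 16w and HFD, the libraries with many endothelial cells. RNA free in the suspension can give UMIs in any cell, and its part in the macrophage values was not tested. The genes were not alike in this. In WT macrophages Cd300lg had 22 UMIs (1.24% of its endothelial level), all in cells with no rule-gene UMI. Gpihbp1, Rbp7, Aqp1 and Tcf15 had 0 there. In macrophages of db/db 16w with no UMI of the rule genes, Gpihbp1 dropped from 28.5 to 4.76 CPM, and in those of HFD from 28.5 to 13.7 CPM. A Gpihbp1 UMI was seen in 0%, 1.97%, 4.82% and 14.6% of macrophages (median depth 6355, 4324, 4253 and 6123 UMIs), and a Timp4 UMI in 0.281%, 1.29%, 2.25% and 3.99%. Endothelial cells were shallower, and 51.8% or more of them held each of these genes in every library.

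Stromal levels were not all near those of macrophages. In stromal cells Meox2 was at 29.3 CPM for WT (27.4 to 31.3), 27.1 CPM for db/db 8w (25.1 to 29.2), 27.4 CPM for db/db 16w (22.2 to 33.4) and 46.4 CPM for HFD (41.9 to 51.2), which was between 22.2% and 31.0% of its endothelial level. Cav1 was there at 47.0, 138, 178 and 108 CPM in the same order, and Cavin2 at 66.6, 78.9, 39.9 and 136 CPM. As in endothelium, Cavin2 was lowest in db/db 16w in stromal cells. In stromal cells that held no rule-gene UMI Meox2 lay between 26.2 and 42.1 CPM. Macrophages held Meox2 at no more than 5.64 CPM, Cav1 at no more than 45.6 CPM and Cavin2 at no more than 46.2 CPM. Adgrf5 was at 6.70, 16.7, 25.1 and 53.0 CPM in stromal cells, against 0.393, 3.58, 8.77 and 34.5 CPM in macrophages. Cd300lg was at 2.76, 13.8, 53.1 and 75.4 CPM, against 8.65, 8.45, 11.96 and 27.4 CPM, and so below the macrophage level in WT alone. A Meox2 UMI was seen in 18.7%, 10.9%, 8.86% and 18.9% of stromal cells.

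At least 10-fold above both macrophages and stromal cells were 9 of 10 genes in db/db 8w (2.86% of all genes compared; not Meox2), 8 of 10 in db/db 16w (4.63%; not Cav1 and Meox2) and 8 of 10 in HFD (3.39%; not Cd300lg and Meox2). The 10 were listed as capillary genes with earlier results of these data known, so this count describes them and is no test of their enrichment. WT is left out of the count, as 3 genes had under 20 endothelial UMIs there, Meox2 (3.41-fold above stromal cells on 3 UMIs) among them. Cd300lg was 9.45-fold above stromal cells in HFD and Cav1 6.88-fold in db/db 16w. The 64 mural cells of db/db 16w held all 10 genes at 22.1% to 79.5% of the endothelial level, with Timp4 at the upper and Cd300lg at the lower end of that range. In the 36 of them with no rule-gene UMI the levels were lower, with Gpihbp1 at 102 CPM in place of 1648, Aqp1 at 20.5 in place of 359.98, Cavin2 at 61.4 in place of 265 and Meox2 at 0 in place of 47.4, while Timp4 was at 942 in place of 1165 and Cav1 at 409.6 in place of 474. Neutrophils of db/db 8w (93 cells) held 0 or 1 UMI of each gene.

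**Figure D4:**
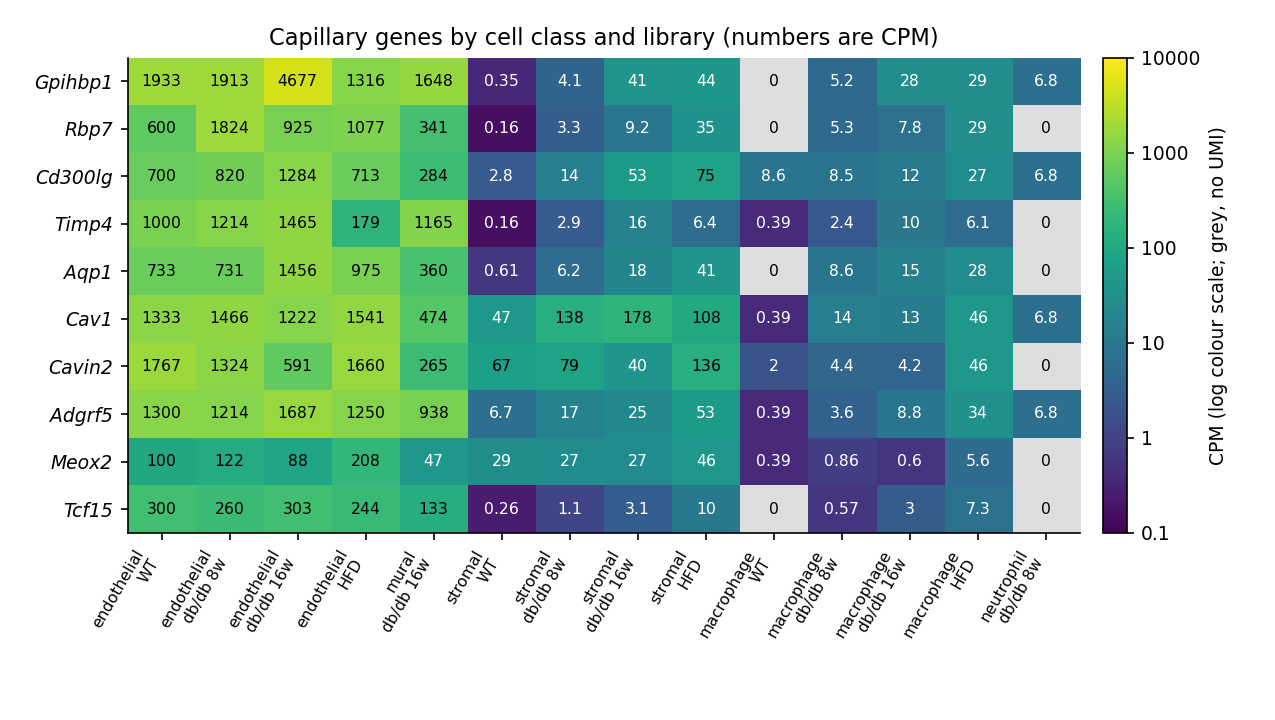
CPM of each gene in every cell class with at least 50 cells (and in the endothelial cells of WT), by library, on a log colour scale with the value in each square. The endothelial columns and the mural column of db/db 16w are high, and Meox2 lies between 27.1 and 46.4 in the stromal columns.

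Thinned cells held several of these genes each, and this was not set against what the share of each gene alone would give. Thinned to 1000 UMIs, 75.0% of the cells in db/db 16w held 5 or more of the 10 (95% interval 71.5 to 78.2), against 61.6% of those in HFD (59.2 to 64.0), 73.4% of those in db/db 8w (62.3 to 82.7) and 53.8% of those in WT (25.1 to 80.8). The median cell held 6 in db/db 16w and 5 in the other libraries. In HFD the shares with another of the genes lay close between thinned cells with and without a Gpihbp1 UMI. Before thinning, 95.5% of 1604 HFD cells held one. Most thinned HFD cells without one thus lost it in the random draw, so this split cannot compare cells that lack Gpihbp1. Cav1 was seen in 76.7% of 1094 thinned cells with a Gpihbp1 UMI and in 71.7% of 505 without one, Cavin2 in 77.7% and 77.4%, and Timp4 in 17.6% and 15.4%. In db/db 16w, where 45 thinned cells had no Gpihbp1 UMI, Aqp1 was seen in 51.8% of cells with one and in 26.7% of those without (95% interval 14.6 to 41.9), the widest gap among the 9 other genes there. In db/db 8w the order was the reverse, with Aqp1 in 27.4% of 62 cells with Gpihbp1 and in 41.2% of 17 without, and in WT it was seen in 0 of 11 and in 2 of 2.

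Aqp1 and Rbp7 differed between arterial-marked and other endothelial cells. Cells with at least 2 UMIs of 8 arterial genes and none of 8 venous genes numbered 362 in HFD and 179 in db/db 16w, and cells marked the other way 60 and 41. In arterial-marked cells Aqp1 was at 505 CPM for HFD, against 1069 CPM in unmarked cells (log2 ratio -1.08, -1.19 to -0.98), and at 773 CPM for db/db 16w, against 1567 CPM (-1.02, -1.23 to -0.82). Rbp7 was higher there, at 1495 CPM against 993 CPM for HFD (0.59, 0.52 to 0.66) and at 1329.9 CPM against 864 CPM for db/db 16w (0.62, 0.45 to 0.79). In the venous-marked cells of HFD the order turned, with Aqp1 at 1397 CPM and Rbp7 at 711 CPM. Among the 10, Aqp1 alone was at least 2-fold apart between arterial-marked and unmarked cells of these libraries, and apart from Aqp1 and Rbp7 the log2 ratios ran from -0.30 to 0.19. Timp4 stayed low in each class of HFD, at 191 CPM in arterial-marked, 186 CPM in venous-marked and 176 CPM in unmarked cells. The marked cells had a median of 3920 UMIs in HFD and 1240.0 UMIs in db/db 16w if arterial, and unmarked cells 4826.5 and 954, so that depth differed with the marking.

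The genes that work with the 10 were given by lists chosen for their roles. Of the 14 genes of lipid uptake and delivery, 8 had enough UMIs in db/db 16w over HFD. Of these, 1 (Fabp4) was at least 2-fold higher, 1 (Fabp5) at least 2-fold lower and the median log2 ratio was 0.33. Fabp4, the fatty acid carrier of adipocytes and capillaries, was at 22466 CPM for WT, 30465 CPM for db/db 8w, 73817 CPM for db/db 16w and 35537 CPM for HFD, and so its level, too, was highest in db/db 16w. Fabp4 is abundant in adipocytes, whose defining markers were at 7.75 CPM in the endothelial cells of db/db 16w and 268 CPM in those of HFD, and the part of adipocyte RNA in its level was not tested. With Fabp4 left out of the totals, Gpihbp1 was higher by 1.89 in db/db 16w over HFD. Fabp5 was at 267, 479, 688 and 1434 CPM in the same order.

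Cd36, the fatty acid receptor, was at 6266 CPM for WT, 5333 CPM for db/db 8w, 5725 CPM for db/db 16w and 5232 CPM for HFD. These lay within a narrow band, and the log2 ratio of db/db 16w over HFD was 0.13 (0.10 to 0.16). Lpl, the lipase that GPIHBP1 carries, was at 4599.8 CPM for WT, 2348 CPM for db/db 8w, 1599.7 CPM for db/db 16w and 1233 CPM for HFD, an order that differed from that of Gpihbp1. The 4 brown adipocyte markers were at 0 in the endothelial cells of WT and db/db 8w. Endothelial lipase, Lipg, was near the minimum at 21.5 CPM for db/db 16w and 12.6 CPM for HFD. Between the db/db libraries 8 genes of the list had a median of 0.11, with Fabp4 at least 2-fold higher (1.28) and Lpl at -0.55 (-0.68 to -0.42).

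Of 9 other caveolar genes, 6 had enough UMIs. In db/db 16w over HFD 5 were within 2-fold, 1 (Ehd4) was at least 2-fold lower (log2 ratio -1.19, -1.57 to -0.83) and the median was 0.11. Cavin1, which every caveola needs, was at 1067 CPM for WT, 1080.3 CPM for db/db 8w, 1262 CPM for db/db 16w and 898 CPM for HFD, so it did not share the low level of Cavin2 in db/db 16w. Cav2, the partner of Cav1 in the coat, was at 367, 280.2, 339.7 and 308 CPM. Cavin3 was at 231 CPM for db/db 16w and 148 CPM for HFD (0.64, 0.47 to 0.81), and Pacsin2, which senses membrane curvature, at 41.1 and 41.7 CPM. Between the db/db libraries the 6 were within 2-fold, with a median of -0.07.

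Other genes of the capillary bed went both ways. Of 8 with enough UMIs in db/db 16w over HFD, 1 was at least 2-fold higher (Car4, a carbonic anhydrase of the capillary surface, 1.24, 1.14 to 1.33) and 2 lower (Btnl9, -1.08, -1.20 to -0.97, and Apln, -3.19, on 5 and 225 UMIs), with a median of -0.14. Over db/db 8w, Aplnr was at least 2-fold higher on 4 and 90 UMIs (1.72, 0.32 to 3.63). Of 12 pan-endothelial genes 2 were at least 2-fold higher in db/db 16w over HFD (Egfl7, 1.43, and Robo4, 1.09), 1 was lower (Erg, -1.06), and the median was 0.15. Arterial genes had a median of -0.10 over 6 and venous genes -0.04 over 5, with Fbln5 at -2.27 and Vcam1 at -3.28. Over db/db 8w, 4 of 7 arterial genes were at least 2-fold lower, Fbln5 (-3.38), Bmx (-3.35), Sema3g (-1.85) and, named after its value was seen, Gja4 (-1.06), with a median of -1.06. Relatives of Rbp7 that bind retinoids, of which 5 were in the files, summed to between 0 and 23.7 CPM, and none had enough UMIs for a ratio.

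Genes of tissue dissociation and heat shock differed between libraries as well. In db/db 16w over HFD 3 of 10 were at least 2-fold higher and 3 lower, with Hspa1b at 4.17 (4637 and 258 CPM), Hspa1a at 3.55 (5178 and 442 CPM) and Fosb at -3.10 (129 and 1109 CPM). In WT, Hspa1a was at 4699.8 CPM and Hspa1b at 3867 CPM. The part of handling in the values of the 10 was not tested.

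**Figure D5:**
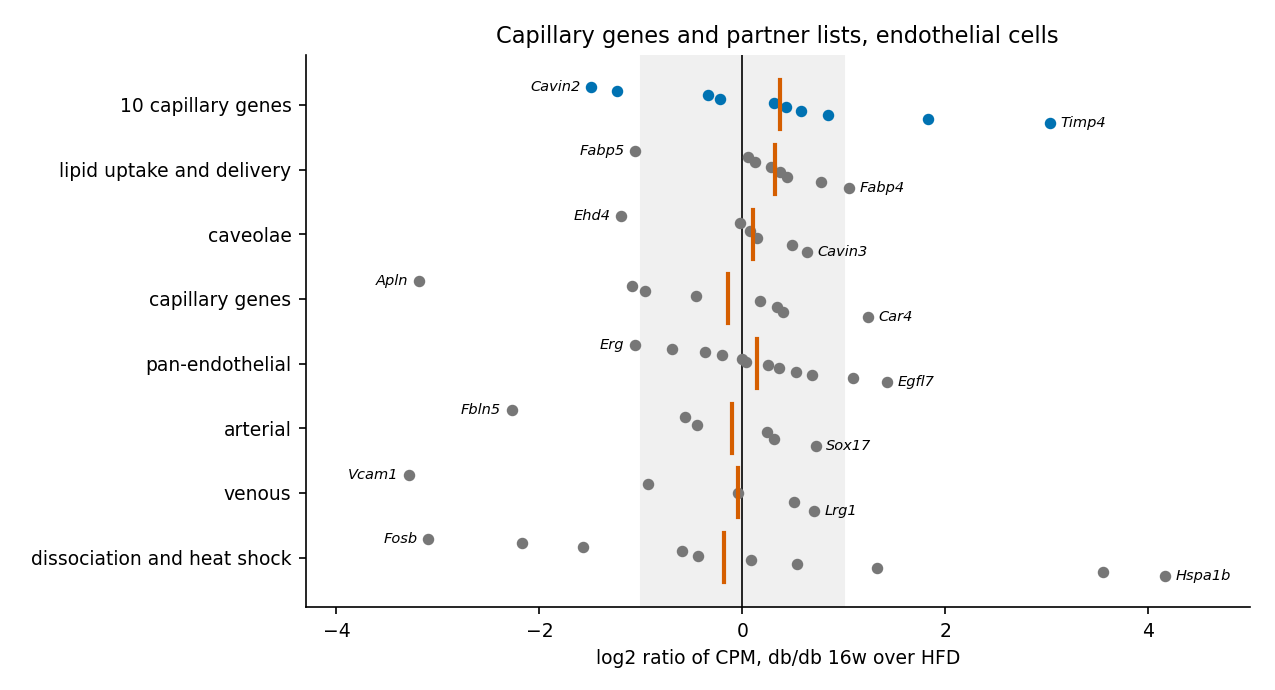
Log2 ratio of CPM in endothelial cells, db/db 16w over HFD, for the 10 genes (blue) and for the genes of 7 other lists with enough UMIs (grey dots, 1 per gene), with orange bars at list medians and the lowest and highest gene of each list named. The medians lie between -0.18 and 0.37, and the 10 genes reach from Cavin2 at -1.49 to Timp4 at 3.03, within the span of the dissociation and heat shock genes.

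Genes whose levels followed those of the 10 were sought across 13 classes of at least 50 cells (library by cell class). The correlation was taken between log2(CPM + 10) of each of 9697 genes and the mean of the 10, and the classes share libraries, depth and free RNA. The highest were Car4, Sncaip, Unc45b, Aqp7 and Fam189a2, with Pearson r of 0.99 each. Aqp7, the glycerol channel of adipose capillaries, was at 309 CPM in the endothelial cells of db/db 8w, 399 CPM in those of db/db 16w and 244 CPM in those of HFD, and at no more than 10.8 CPM in stromal cells and macrophages and at 152 CPM in the mural cells of db/db 16w. Car4 was at 443, 746 and 317 CPM in the same 3 endothelial classes and at 170.5 CPM in those mural cells.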

How the data were processed

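The authors aligned 10x Genomics reads to mm10 with Cell Ranger (7.1.0 in the submitters' processing notes, 6.0.0 in the matrix headers) and deposited 1 filtered matrix of raw UMI counts per library. The study's limits on genes per cell (250 to 6000), UMIs (500 to 30000) and mitochondrial share (15%) left 28887 of 50581 barcodes. No doublet caller was run. Cells passing a second lineage were left out as an alternative. Endothelial cells were those with Cdh5, Cldn5, Kdr and Flt1 at 20 or more UMIs per 10000, and other classes passed the same threshold for 4 markers of their own and none for a second. Counts were summed per class and given as CPM with exact Poisson intervals, shares with exact Clopper-Pearson intervals after thinning to 1000 UMIs, and ratios with exact conditional binomial intervals, all for counting error only, at 95%. A gene was called at 2-fold or more if it had 20 CPM in either library and 20 UMIs in both together. In comparisons over all genes any count under 3 was set to 3. A gene was left out there if 1 count was under 3 and the other level did not exceed that of 3 counts. For the ratios of the 10 genes only a 0 would have been set to 3. Such calls are not tests. The scripts were tested on simulated data. The genes and lists were chosen with earlier results of these data known. All 10 genes, the 3 largest ratios of each partner list, 5 fixed partners (Lpl, Cd36, Fabp4, Cav2 and Cavin1) and the 5 genes of most like pattern are named. Python 3.11.15, numpy 2.4.6, scipy 1.17.1, pandas 2.3.3 and matplotlib 3.10.9 were used.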

Additional observations from a re-analysis of the deposited data

Results flagged for a closer look

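Gpihbp1 and Timp4 lay on opposite sides of WT in db/db 16w and HFD. Gpihbp1 had a log2 ratio of 1.27 (0.90 to 1.67) in db/db 16w over WT and of -0.56 (-0.93 to -0.16) in HFD over WT. The medians over all genes were -0.61 and -0.42 in these comparisons. Those medians cover genes kept in part by their WT count and are no fair background for Gpihbp1 and Timp4. Over the 11 other settings the Gpihbp1 ratio in HFD over WT spanned -0.95 to -0.13, and was nearest 0 when scaled to the 12 pan-endothelial genes. Timp4 had a log2 ratio of 0.55 (0.03 to 1.12) in db/db 16w over WT and of -2.48 (-3.00 to -1.91) in HFD over WT. Over the 11 other settings these spanned 0.36 to 0.81 and -2.66 to -2.06. The intervals of the Timp4 levels in WT and db/db 16w overlapped. With 1 library per group the difference between these ratios was not tested, and both are taken over the same 21 WT cells.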

How the results depend on the processing

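Each ratio was recomputed under 11 other settings, of which scaling to 12 pan-endothelial genes, leaving Fabp4 out of the totals and keeping only cells of 1000 to 3000 UMIs were chosen after seeing the data. Scaled to the 12 pan-endothelial genes, the median log2 ratio of the 10 genes in db/db 16w over HFD was 0.19 in place of 0.37. Over all settings the medians spanned 0.19 to 0.45 in db/db 16w over HFD, 0.02 to 0.31 over db/db 8w and 0.32 to 0.70 over WT, -0.10 to 0.41 in HFD over WT and -0.09 to 0.54 in db/db 8w over WT. Gpihbp1 and Cavin2 passed 2-fold in db/db 16w over db/db 8w and over WT under each setting, with ranges of 1.02 to 1.43 and -1.35 to -1.06 over db/db 8w and 1.02 to 1.76 and -1.65 to -1.14 over WT. Rbp7 in db/db 8w over WT spanned 1.33 to 2.02, Timp4 in HFD over WT -2.66 to -2.06 and Meox2 in HFD over WT 0.01 to 1.496. A minimum of 100 CPM put 27.5% of all genes past 2-fold in db/db 16w over HFD, against 25.3%. Not thinned, 33 of 40 shares of endothelial cells with a UMI were higher, and thinned to 2000 UMIs 39 of 40 were. These shares rest on unlike cells as well as unlike depths. At 2000 UMIs only 6, 41, 167 and 1528 cells were deep enough to be kept, and without thinning all endothelial cells were. The parts of depth and of the cells kept in these shifts were not tested. No paired analysis was possible because each group is 1 library with no replicate number. Precision is least in WT, whose 21 cells held 30001 UMIs, so that 1 UMI was worth 33.3 CPM.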
